A study of Mus musculus with 16 samples.

Results

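Krüppel-like factors are zinc-finger transcription factors, and 10 of their genes are described here in P19CL6 cells that leave the undifferentiated state in DMSO. The genes are Klf2, Klf3, Klf4, Klf5, Klf6, Klf7, Klf9, Klf10, Klf13 and Klf15. They were chosen by symbol out of 18193 genes that have a probe set of their own, and each is read from the brightest of its probe sets, judged by the mean over 16 arrays. All 10 passed a filter that left out probe sets above log2 4 on fewer than 2 arrays.

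P19CL6 is a mouse embryonal carcinoma line that forms beating cardiac muscle in DMSO. RNA from 6 groups was hybridised to Affymetrix mouse arrays: growth cells, passaged every 48 h in alpha-MEM with 10% serum and no DMSO (3 arrays), and cells after 4 (3 arrays), 6 (2), 8 (3), 10 (3) and 12 days (2) in medium with 1% DMSO. All groups are the same cell line with no engineered allele, and the labels call the samples of a group independent. No untreated culture of the same age is among the groups, so DMSO, density and time without passage cannot be told apart. In whole cultures, fewer cells of a type and less RNA per cell cannot be told apart either.

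Values are GCRMA signals, read as log2, and levels are set beside each other only for 1 probe set across arrays. A gene was called changed at a limma adjusted p under 0.05 over the 10802 genes tested and a difference of at least 1 log2. Embryonal carcinoma identity was high in growth cells, where the 6 markers Pou5f1, Sox2, Nanog, Utf1, Tdgf1 and L1td1 summed to a linear signal of 29000 to 36100, and all 6 were called lower on every DMSO day. Cardiomyocyte markers summed to 44200 to 54400 on day 10 and 81000 to 83600 on day 12, against 48.4 to 73.6 in growth. Day 8 replicate A stood apart: it correlated with replicates B and C of its day at r = 0.967 and 0.956, but with the day 6 arrays at 0.992 and 0.99. Day 8 results of the 10 genes, and those of listed genes whose call changed, are given with and without it.

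Krüppel-like factors bind GC-rich and CACCC-containing DNA through C-terminal zinc fingers, and differ in the N-terminal part that recruits co-activators or co-repressors. Klf2, Klf4 and Klf5 belong to the self-renewal network of mouse embryonic stem cells, Klf3 and the Klf9 and Klf13 proteins are known as repressors that recruit CtBP or Sin3a, and Klf15 is known in heart and liver for amino acid metabolism. Klf2 is also an endothelial factor induced through ERK5 and MEF2.

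Promoter sequences are shown for Klf4 and Klf2, 2 of the self-renewal factors, and for Klf15 and Klf9, whose levels turned within the time course. Each runs 5′ to 3′ from 250 bases before to 50 bases after the start in RefSeq (GRCm38.p6). Klf4 lies at chr4:55532426-55532725 on the minus strand, and Klf2 at chr8:72318812-72319111, Klf15 at chr6:90462326-90462625 and Klf9 at chr19:23140976-23141275 on the plus strand. Capitals mark matches, on either strand, to CACCC, to the GC box GGGCGG, to the MEF2-like CTANNNNTAG and to the STAT-like TTCNNNGAA, and matches may overlap.
Klf4: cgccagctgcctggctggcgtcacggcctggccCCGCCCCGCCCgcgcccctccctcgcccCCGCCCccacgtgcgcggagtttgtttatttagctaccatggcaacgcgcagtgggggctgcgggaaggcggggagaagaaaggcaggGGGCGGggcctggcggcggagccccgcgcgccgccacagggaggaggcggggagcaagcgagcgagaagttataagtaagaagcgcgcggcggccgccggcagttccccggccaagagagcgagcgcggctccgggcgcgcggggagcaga
Klf2: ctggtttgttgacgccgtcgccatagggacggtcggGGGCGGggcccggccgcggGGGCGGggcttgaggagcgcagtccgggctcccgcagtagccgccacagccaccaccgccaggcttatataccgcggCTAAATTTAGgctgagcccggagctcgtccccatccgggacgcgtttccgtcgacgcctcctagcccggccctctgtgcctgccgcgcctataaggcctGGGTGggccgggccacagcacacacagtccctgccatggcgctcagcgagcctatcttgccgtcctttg
Klf15: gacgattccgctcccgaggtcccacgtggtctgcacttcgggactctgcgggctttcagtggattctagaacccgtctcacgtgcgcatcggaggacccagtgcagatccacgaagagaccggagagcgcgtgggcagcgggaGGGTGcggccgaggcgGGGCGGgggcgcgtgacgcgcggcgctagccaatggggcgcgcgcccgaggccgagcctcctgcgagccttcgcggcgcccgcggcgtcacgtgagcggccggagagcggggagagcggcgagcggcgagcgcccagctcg
Klf9: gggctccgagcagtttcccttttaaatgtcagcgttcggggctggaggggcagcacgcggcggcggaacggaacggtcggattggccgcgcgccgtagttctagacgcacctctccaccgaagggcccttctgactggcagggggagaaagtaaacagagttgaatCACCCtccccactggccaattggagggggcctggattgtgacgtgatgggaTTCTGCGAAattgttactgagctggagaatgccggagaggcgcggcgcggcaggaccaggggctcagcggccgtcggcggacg

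RefSeq promoters were found for 8 of the 10 genes; Klf5 and Klf10 are named only. A GC box was in 7 of the 8 (all but Klf9), beside 35.7% of 32851 promoters of this length, and a CACCC match in 6 of the 8 (all but Klf4 and Klf6), beside 57.5%. The Klf4 promoter held 4 GC boxes and Klf3 held 6. The MEF2-like letters were found once, in Klf2, and in 3.69% of all promoters. The STAT-like letters were found once, in Klf9, and in 8.3% of all promoters. A match is a description of letters, and binding was not measured.

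Klf4, a reprogramming factor that LIF signalling induces in embryonic stem cells, was dim in growth cells and called higher on every DMSO day. It read 3.58, 3.54 and 3.57 in growth, all under the dim limit of log2 4. On day 4 it read 6.19, 6.83 and 7.00, on day 6 6.61 and 6.40, on day 8 6.48, 8.25 and 7.98 (replicates A, C and B), on day 10 5.65, 6.26 and 6.69, and on day 12 6.42 and 6.90. Every DMSO array was above every growth array. Because growth was dim, the folds are lower bounds, taken against log2 4: Klf4 was at least 6.39-fold higher on day 4, 5.68-fold on day 6, 11.9-fold on day 8 (17.3-fold without replicate A), 4.6-fold on day 10 and 6.32-fold on day 12. The limma adjusted p was between 1.93e-06 (day 8) and 0.000116 (day 6). On day 10 Klf4 was lower than on day 8, by a log2 difference of -1.37 ± 0.39 (SE, adjusted p = 0.0307). With all arrays, days 8 and 10 overlapped. Leaving out day 8 replicate C gave -1.03 (adjusted p = 0.0983), and the call was also lost without day 8 B (-1.17), day 10 A (-1.10) or day 10 B (-1.40). No dim filter (adjusted p = 0.0743), probe sets averaged (0.161) or only the compared groups fitted (0.162) lost the call as well. Without day 8 A the difference was -1.91, and Klf4 was then also higher on day 8 than on day 6, by 1.61 (adjusted p = 0.00762). The gene's other probe set, 1417395_at, was dim in growth (2.26 to 2.41) and was called at day 8 alone, at least 1.91-fold higher (adjusted p = 0.012), or at least 3.77-fold without replicate A.

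Klf2, another self-renewal factor, stayed near its growth level to day 8 and was called higher at day 12. It read 4.22, 4.24 and 4.81 in growth, 4.31, 4.45 and 5.08 on day 4, 4.27 and 4.23 on day 6, and 4.22, 5.03 and 4.46 on day 8. On day 10 it read 5.07, 4.59 and 6.47 (A, B and C), and on day 12 6.44 and 6.57. Thus both day 12 arrays and 1 day 10 array lay above all others. The day 12 difference from growth was 2.08 ± 0.43 log2 (SE, 4.22-fold, adjusted p = 0.000902). Klf2 has a single probe set here, and its growth values lay close to the dim limit of log2 4. Day 12 was also called higher than day 4 (1.89), day 6 (2.26) and day 8 (1.93, and 1.76 without day 8 A). The day 10 difference was 0.95 (adjusted p = 0.0468), under the size limit, and it was called without growth C (1.14), day 10 A (1.10) or day 10 B (1.34). Day 12 against day 10 was 1.13 (adjusted p = 0.198) and was called only without day 10 C (1.67, adjusted p = 0.013).

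Endothelial markers and RNA controls were read on the same arrays as Klf2. The 7 endothelial markers summed to 354 to 592 on day 12 and 380 to 453 on day 10, against 38.9 to 47 in growth, where all 7 were dim. Day 4, where Klf2 was not called, had sums of 307 to 676, carried by Kdr. Of the 4 tested (Pecam1, Cdh5, Kdr and Tek), 1, 1, 2, 2 and 4 were called higher in day order, and 3 on day 8 without replicate A. Among all genes, 13.3%, 14.0%, 16%, 18.5% and 22.5% were called higher in day order. Pecam1 passed log2 4 only on day 10 A (4.42) and day 12 C (4.61). Cdh5 passed it only on day 8 C (4.03), day 10 A (4.88) and day 12 A (4.18). Both were thus tested only through late arrays close to the dim limit. On day 12 Kdr read 7.29 and 7.15, Tek 7.16 and 8.62, Cdh5 (VE-cadherin) 4.18 and 3.80 and Pecam1 3.62 and 4.61, while Tie1, Emcn and Sox18 were dim. The 18S ribosomal controls read 8.04 and 8.69 on day 12 and 4.91 to 6.88 on the other 14 arrays. Day 10 C, with Klf2 at 6.47, had an 18S reading of 5.47, inside the growth range of 4.91 to 5.66. Their part in the Klf2 result was not tested.

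Klf5, a self-renewal and smooth-muscle factor, was called higher than growth on day 8, its highest mean. It read 3.51, 3.02 and 4.17 in growth, 4.70, 4.49 and 5.78 on day 4, 3.85 and 5.25 on day 6, 4.51, 6.75 and 6.75 on day 8 (A, C and B), 3.40, 4.43 and 4.71 on day 10, and 4.51 and 4.92 on day 12. Within day 8, replicate A was over 2 log2 below the other 2 arrays. In growth 2 of the 3 arrays were dim. The day 8 difference from growth was 2.44 ± 0.60 log2 (SE, adjusted p = 0.00362), and 3.18 without replicate A. With the dim growth arrays at log2 4 it was at least 3.86-fold, or 6.47-fold without replicate A. With all arrays day 8 was not called against another DMSO day: it was above day 4 by 1.02 (adjusted p = 0.242) and above day 6 by 1.46 (0.431), and day 10 and day 12 were below it by differences of -1.83 (0.0528) and -1.29 (0.174), with overlapping arrays each time. The other days were not called: 1.42 on day 4 (adjusted p = 0.0642), 0.98 on day 6, 0.61 on day 10 and 1.15 on day 12. Without day 8 A, day 4 was called (adjusted p = 0.0186), day 8 was higher than day 4 by 1.76 (adjusted p = 0.0185) and than day 6 by 2.20 (adjusted p = 0.0268), and day 10 and day 12 were lower than day 8 by differences of -2.57 (adjusted p = 0.00708) and -2.04 (adjusted p = 0.0203). The other 2 probe sets of Klf5 were dim.

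Most of the other pluripotency genes that could be tested went the other way. Of 18 listed, 11 were tested. Of these, 8 were lower and 1 higher on days 4 and 6, and 10 were lower and 1 higher on days 8, 10 and 12. The counts were the same without day 8 A. Dppa4, Fgf4 and Gdf3 were above log2 4 on growth arrays alone. They thus passed the filter only through the group where they were high, and the counts of lower calls include them. Among all genes, 13.6%, 12.9%, 15.0%, 19.5% and 19.3% were called lower in day order and 13.3%, 14.0%, 16%, 18.5% and 22.5% higher. Several members were dim in DMSO, so medians are given with values under log2 4 set to 4: they were -2.57, -3.25, -3.25, -3.97 and -4.48 log2 in day order, beside all-gene medians between -0.02 and 0.01. The gene called higher each day was Tbx3, a T-box factor, at least 65.7-fold on day 4 and at least 7.17-fold on day 12. Pou5f1 (Oct4) averaged 11.23 on day 4, when Klf4 was already called, against 14.30 in growth, and 7.51 on day 8, when Klf4 was highest. Nanog averaged 3.89 on day 4 and 3.29 on day 8, against 7.90 in growth. Sall4 and Lin28a joined at day 8 (-1.50 and -2.27). The other 7 were not tested, being dim: Esrrb, Zfp42, Tfcp2l1, Nr0b1, Prdm14 and Nr5a2 lay under log2 4 on all 16 arrays, and Dppa5a passed it on 1. That Klf2 and Klf4 rose while such genes fell was known when the genes were chosen.

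**Figure D1:**
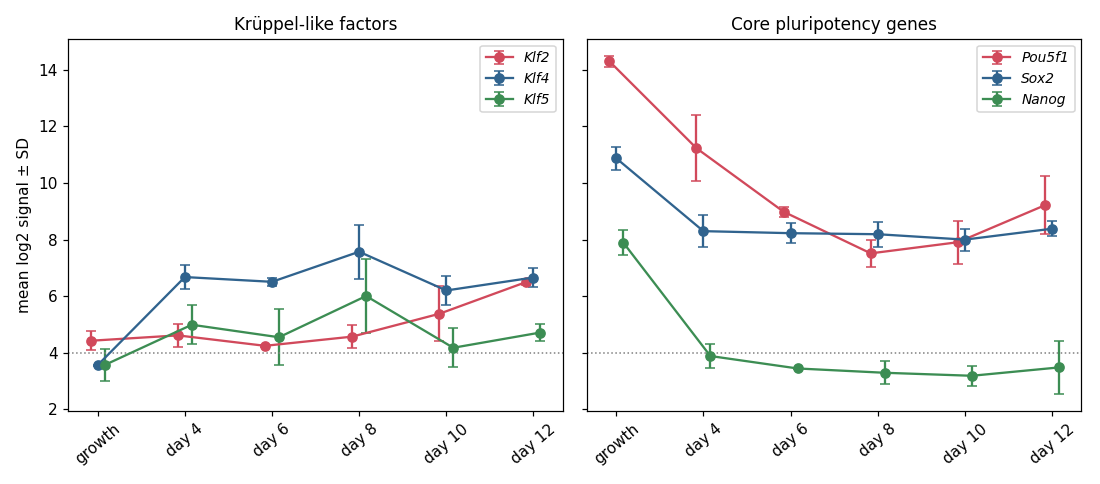
Mean log2 signal (y axis) with SD bars in growth and on DMSO days 4 to 12 (x axis), for Klf2, Klf4 and Klf5 (left) and Pou5f1, Sox2 and Nanog (right); the dotted line is the dim limit of log2 4. Klf4 crossed the limit by day 4 and Klf2 read 6.44 and 6.57 on day 12 and 4.22 to 4.81 in growth, while Pou5f1 averaged 7.51 on day 8 and 14.30 in growth.

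Across the DMSO days, 4 of the 10 genes were called on day 4, where 27.0% of all genes were called. All 4 were higher (13.3% of all genes) and 0 lower (13.6%). The counts were 5 on day 6 (26.8% of all genes), 6 on day 8 (31.0%), 6 on day 10 (38.0%) and 6 on day 12 (41.9%). Higher were 3 on day 6 (14.0% of all genes), 4 on day 8 (16%), 3 on day 10 (18.5%) and 5 on day 12 (22.5%). Lower were 2 on day 6 (12.9% of all genes), 2 on day 8 (15.0%), 3 on day 10 (19.5%) and 1 on day 12 (19.3%). Klf3, Klf4 and Klf6 were higher on all 5 days. The F test over the 5 days called 10 of 10, where it called 60.9% of all genes. The median difference of the 10 was 0.86, 0.89, 0.89, 0.47 and 1.33 log2 on days 4, 6, 8, 10 and 12, beside all-gene medians between -0.02 and 0.01. With values under log2 4 set to 4, the medians of the 10 were 0.82, 0.68, 0.89, 0.32 and 1.08. Without day 8 A, day 4 had 5 calls (27.2% of genes) and day 8 had 5 (33.4%; 4 higher, 1 lower). The day 8 differences were then 3.345 for Klf3, 3.045 for Klf6, -0.94 for Klf7 and -1.57 for Klf9, with 0.32 for Klf2 and 0.84 for Klf10, which were not called.

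**Figure D2:**
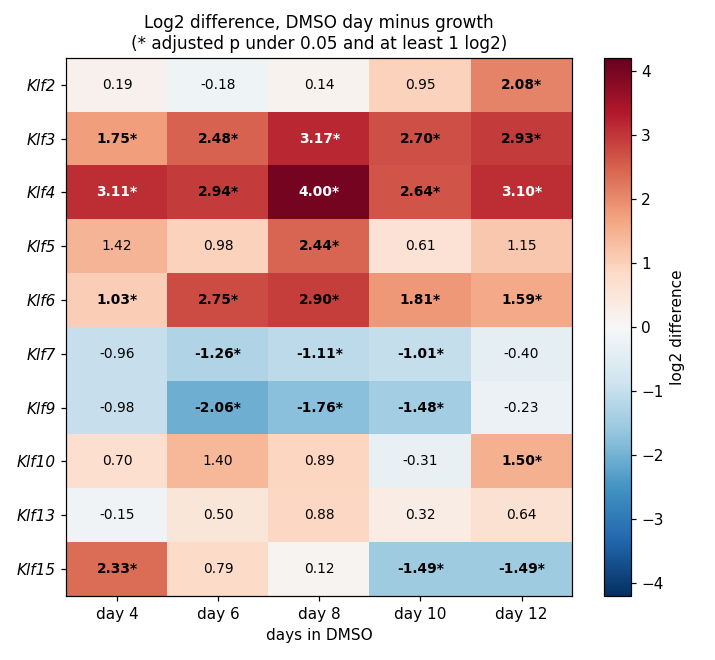
Log2 difference of each DMSO day (columns, days 4 to 12) from growth for the 10 genes (lines of the grid), with the value printed and an asterisk where it was called; Klf4 was dim on all 3 growth arrays and Klf5 on 2, so their measured values are not exact changes. Klf3, Klf4 and Klf6 are red on all 5 days, Klf7 and Klf9 are blue, and Klf15 is red on day 4 (2.33) and blue on days 10 and 12 (-1.49 on both).

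Klf3, a CtBP-recruiting repressor, rose from the first DMSO sample and stayed high. It read 6.25, 7.56 and 7.41 in growth, 8.70, 8.90 and 8.89 on day 4, 9.59 and 9.53 on day 6, 9.88, 10.58 and 10.26 on day 8, 9.85, 9.82 and 9.67 on day 10, and 9.46 and 10.55 on day 12. No DMSO array overlapped growth. The differences from growth were 1.75 (3.37-fold), 2.48 (5.60-fold), 3.17 (8.97-fold), 2.70 (6.51-fold) and 2.93 log2 (7.62-fold) in day order, with an SE of 0.33 on days with 3 arrays and 0.36 on days with 2. The limma adjusted p ranged from 3.19e-06 on day 8 to 0.000574 on day 4. Day 8 was also above day 4 by 1.41 (adjusted p = 0.00656), and by 1.59 without day 8 A. The steps between neighbouring days were not called.

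Other Klf3 probe sets did not all follow the probe set used. Of 7 probe sets 6 passed the dim filter. The next brightest, 1421604_a_at, was called higher on days 6, 8 and 10 (1.70, 1.80 and 1.61), and 1429360_at on days 6 and 8 (2.57 on both). The passing probe sets 1431630_a_at, 1441200_at and 1458487_at were not called against growth on any day (-0.29, -0.05 and 0.13 on day 4). On days 4 and 12 only the probe set used was called. On day 10 A, 1429360_at read 3.76, against 7.90 and 6.99 on day 10 B and C, while the probe set used read 9.85 there. With all Klf3 probe sets averaged, the gene's difference was 0.63 on day 4 (adjusted p = 0.058) and 0.92 on day 12, and neither was called.

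Klf6, an early-response factor linked to injury and to TGF-beta genes, was higher on every DMSO day with its top on days 6 and 8. It read 6.23, 7.30 and 7.02 in growth, 7.97, 7.63 and 8.03 on day 4, 9.54 and 9.65 on day 6, 9.44, 9.98 and 9.81 on day 8, 8.38, 8.74 and 8.86 on day 10, and 8.18 and 8.69 on day 12. All arrays of days 6 and 8 lay above those of every other group. The differences were 1.03 (2.04-fold, adjusted p = 0.00472), 2.75 (6.71-fold), 2.90 (7.44-fold, adjusted p = 8.64e-07), 1.81 (3.51-fold) and 1.59 log2 (3.01-fold) in day order. The call on day 4 lay near the size limit, and was lost without growth A (0.72), day 4 A (0.98) or day 4 C (0.95). Probe sets averaged per gene (0.70), array weights (0.84), quantile normalization (0.94) or scaling to a common median (0.99) lost it as well.

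Klf6 moved between days as well. From day 4 to day 6 the difference was 1.72 ± 0.29 log2 (SE, adjusted p = 0.00186), and from day 8 to day 10 it was -1.09 ± 0.26 (adjusted p = 0.0132). The second was lost without day 8 C (-0.97, by size) or day 10 A (-0.95, adjusted p = 0.0546) and was -1.24 without day 8 A. With probe sets averaged per gene the second was also lost (-0.61, adjusted p = 0.0716). On the passing probe set 1427742_a_at, day 10 was not below day 8 (0.36, not called). All 5 probe sets of Klf6 passed the filter, and 4 of them were called higher on each of days 6, 8 and 10. On day 4 only the probe set used and 1433508_at were called, and 1427742_a_at differed from growth by -0.19. On day 12, 1418280_at (1.07, adjusted p = 0.129) and 1459718_x_at were not called. On 1418280_at, day 10 A read 5.49, against 7.24 and 6.98 on day 10 B and C.

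**Figure D3:**
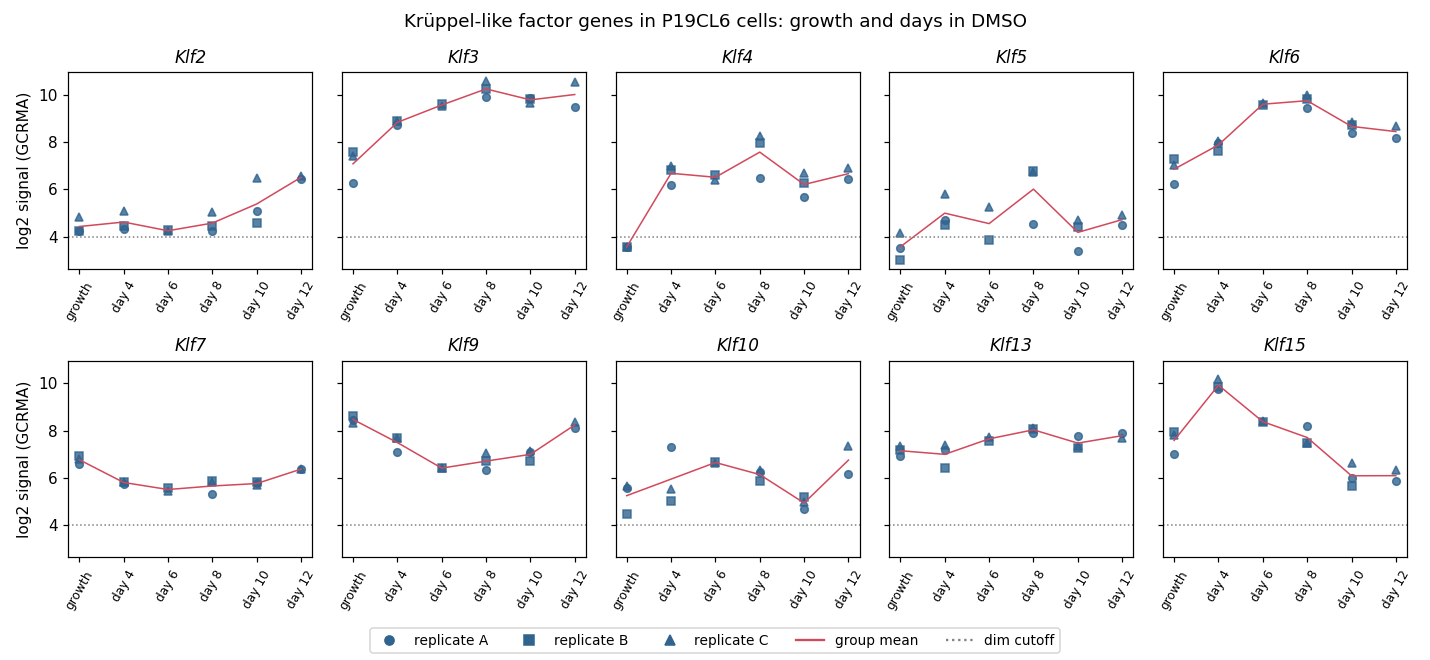
Log2 signal (y axis) of the 10 genes on each of the 16 arrays, by group (x axis), with the replicate letter as the symbol, the group mean as a line and the dim limit as a dotted line. Klf4 lies under the limit only in growth, Klf15 tops on day 4 at 9.77 to 10.17, and Klf9 dips to 6.42 on both day 6 arrays.

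Klf15, a regulator of amino acid and glucose metabolism in heart and liver, first rose and then fell below its growth level. It read 7.00, 7.95 and 7.82 in growth, 9.77, 9.83 and 10.17 on day 4, 8.38 and 8.39 on day 6, 8.19, 7.46 and 7.49 on day 8 (A, C and B), 6.01, 5.66 and 6.61 on day 10, and 5.88 and 6.32 on day 12. The day 4 arrays were above, and the arrays of days 10 and 12 below, every growth array. Day 4 differed from growth by 2.33 ± 0.29 log2 (SE, 5.04-fold, adjusted p = 2.42e-05). Days 6 and 8 were not called (0.79, adjusted p = 0.0666, and 0.12, adjusted p = 0.756). Days 10 and 12 were called lower by a difference of -1.49 each (adjusted p = 0.00059 and 0.0014).

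The fall of Klf15 after day 4 came in steps. Day 6 was lower than day 4 by a difference of -1.54 ± 0.33 log2 (SE, adjusted p = 0.00993), and this was lost without day 6 B (-1.53, adjusted p = 0.0806) or day 6 C (-1.55, adjusted p = 0.0888). Day 10 was lower than day 8, at -1.62 ± 0.29 (adjusted p = 0.00291). Day 12 against day 10 was 0.00 (adjusted p = 0.997). Without day 8 A, day 8 differed from growth by -0.11 and day 10 from day 8 by -1.38 (adjusted p = 0.0141). Klf15 has a single probe set here.

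Genes known as Klf15 targets in heart and liver were not called higher on day 4 (0 of 5, near the 13.3% of all genes). Of 5 listed and tested, Bcat2 and Got1, both amino acid transaminases, were lower on all 5 days: Bcat2 by differences of -1.08 on day 4 and -1.81 on day 12, Got1 by -1.0 and -1.16. The proline dehydrogenase Prodh was lower on days 10 and 12 (-1.03 and -1.59). Slc2a4, the insulin-responsive glucose transporter, was higher on days 8, 10 and 12 (1.57, 1.89 and 2.31). Alas1 was not called. Among all genes, 13.3%, 14.0%, 16%, 18.5% and 22.5% were called higher in day order and 13.6%, 12.9%, 15.0%, 19.5% and 19.3% lower. Prodh was also lower on day 8 when day 8 A was left out (-1.02). The list median was -0.59, 0.23, -0.75, -1.03 and -1.16 log2 in day order, positive on day 6, beside all-gene medians between -0.02 and 0.01.

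Klf9, a glucocorticoid- and thyroid hormone-induced repressor that recruits Sin3a, dipped in mid-course and was back near its growth level on day 12. It read 8.44, 8.64 and 8.34 in growth, 7.11, 7.68 and 7.71 on day 4, 6.42 and 6.42 on day 6, 6.34, 7.08 and 6.73 on day 8, 7.11, 6.73 and 7.16 on day 10, and 8.10 and 8.39 on day 12. Arrays of days 4 to 10 all lay below growth, and day 12 overlapped it. The differences were -2.06 ± 0.24 on day 6 (SE, 4.16-fold lower, adjusted p = 1.53e-05), -1.76 on day 8 and -1.48 on day 10. On day 12 it was -0.23 (adjusted p = 0.421). On day 4 it was -0.98 (adjusted p = 0.00193), just under the size limit, and it was called without growth C (-1.04), day 4 B (-1.07) or day 4 C (-1.08).

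Between days, Klf9 was lower on day 6 than on day 4 (-1.08, adjusted p = 0.0126) and higher on day 12 than on day 10 (1.24, adjusted p = 0.00892). The first was lost without any 1 of day 4 B (-0.99), day 4 C (-0.98), day 6 B or day 6 C (-1.08 each, adjusted p = 0.0938 and 0.108). The second was lost without day 12 C (1.10, adjusted p = 0.142). Day 12 against day 6 was 1.82 (adjusted p = 0.000186).

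Of 7 Klf9 probe sets 4 passed the filter, and 3 were called lower on days 6, 8 and 10. On 1456341_a_at and 1428289_at, day 10 A read 7.56 and 7.04, against 4.90 and 4.97, and 5.40 and 5.60, on day 10 B and C. Day 12 A read 8.52 and 8.54 on them, against 6.94 and 6.62 on day 12 C. The probe set used did not split these replicates, at 7.11 on day 10 A and 8.10 on day 12 A. The Actb 3′ minus 5′ control, a sign of RNA integrity, was 1.33 on day 10 A, 1.06 on day 12 A and 0.68 to 1.02 on the other 14 arrays. Its part in these probe sets was not tested.

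**Figure D4:**
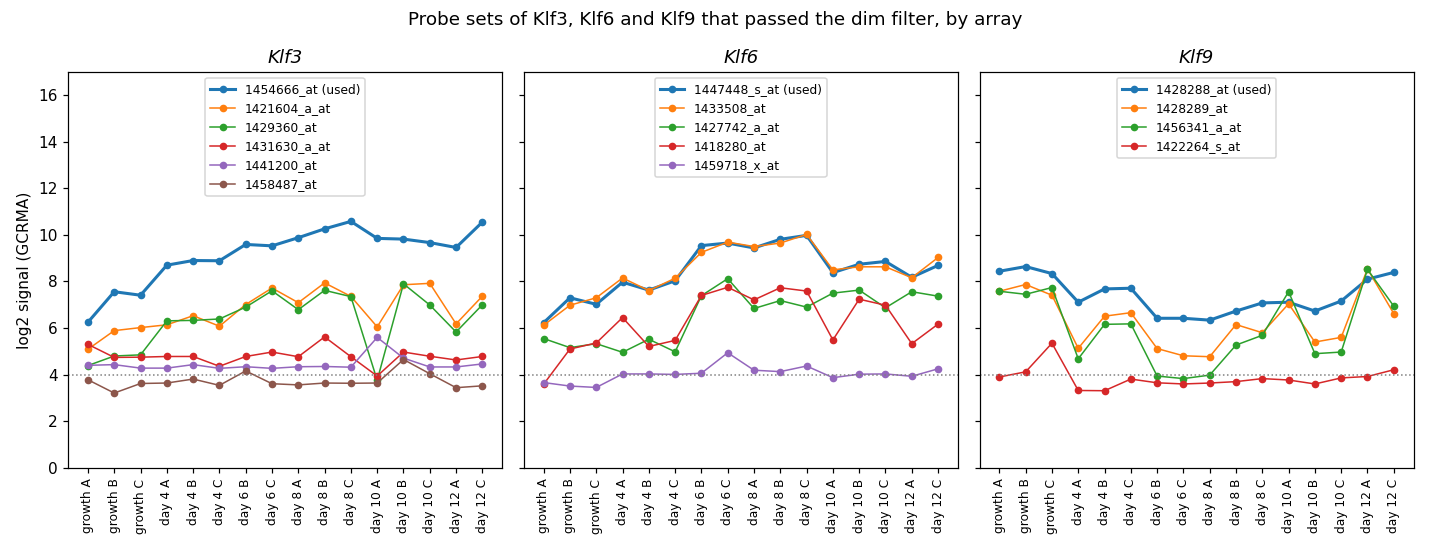
Log2 signal (y axis) of the probe sets of Klf3, Klf6 and Klf9 that passed the dim filter, on each array (x axis, grouped by day); the thick line is the probe set used and the dotted line the dim limit. Day 10 A departs from day 10 B and C on some thin lines (3.76 on Klf3 1429360_at, 7.56 on Klf9 1456341_a_at) but not on the thick ones.

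Klf7, a factor known from axon outgrowth and fat cell differentiation, had a course like that of Klf9. It read 6.61, 6.92 and 6.79 in growth, 5.76, 5.85 and 5.83 on day 4, 5.59 and 5.44 on day 6, 5.32, 5.81 and 5.86 on day 8, 5.79, 5.82 and 5.69 on day 10, and 6.39 and 6.37 on day 12. Every DMSO array lay below every growth array. It was called lower on day 6 (-1.26 ± 0.17 log2, SE, adjusted p = 6.05e-05), day 8 (-1.11) and day 10 (-1.01). Day 4 was -0.96 (adjusted p = 0.00018) and day 12 -0.40 (adjusted p = 0.0598). All but day 6 lay close to the size limit or under it: day 4 was called without growth A (-1.04), day 8 lost without day 8 A (-0.94), and day 10 lost without growth B (-0.93), growth C (-1.0) or day 10 C (-0.97). All 4 probe sets of Klf7 passed the filter. Against growth, 1419356_at was called lower on days 6, 8 and 10, 1419355_at on day 8 alone and 1449439_at on no day. Without day 8 A their day 8 differences were -0.93, -0.86 and -0.25, and none was called. Klf7 and Klf9 correlated at r = 0.92 over the 16 arrays, the highest r among pairs of the 10, a description of points that share groups.

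Klf10 (TIEG1), induced by TGF-beta, varied widely within growth, day 4 and day 12, and less within days 6, 8 and 10. It read 5.60, 4.50 and 5.67 in growth, 7.30, 5.04 and 5.53 on day 4, 6.68 and 6.63 on day 6, 6.24, 6.34 and 5.86 on day 8, 4.67, 5.19 and 4.98 on day 10, and 6.17 and 7.34 on day 12. Day 4 alone spanned over 2 log2, with replicate A high. Day 12 was called higher than growth (1.5 ± 0.55 log2, SE, 2.83-fold, adjusted p = 0.029), and this was lost without growth B (1.12, adjusted p = 0.108) or day 12 C (0.92, adjusted p = 0.28). With the replicate letter as a block it was 1.32 (adjusted p = 0.0532). Day 6 was 1.40 (adjusted p = 0.0531), and was called without day 4 A (adjusted p = 0.00966) or day 4 B (adjusted p = 0.0353), through the shared spread. Day 10 was below day 6 by a difference of -1.71 (adjusted p = 0.0314). Without day 4 A, day 10 was also called below day 8 (-1.20, adjusted p = 0.0324) and day 12 above day 10 (1.81, adjusted p = 0.0169).

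Klf13, a Sin3a-recruiting factor known to act with Gata4 and Tbx5 in the heart, moved least against growth. It read 6.93, 7.17 and 7.36 in growth, 7.18, 6.43 and 7.40 on day 4, 7.57 and 7.74 on day 6, 7.91, 8.13 and 8.07 on day 8, 7.79, 7.28 and 7.36 on day 10, and 7.88 and 7.70 on day 12. Day 8 was clear of both growth and day 4. Its difference from growth was 0.88 ± 0.23 log2 (SE, adjusted p = 0.00493), under the size limit, and from day 4 1.04 (adjusted p = 0.00486), which was called. These were 0.95 and 1.10 without day 8 A, and only the second was called. The latest day differed from growth by 0.64 (adjusted p = 0.0432). Another passing probe set, 1432543_a_at, was not called against growth on any day. On it day 8 differed by 0.815 (adjusted p = 0.103), or 1.03 without day 8 A (adjusted p = 0.0665), and day 12 by 0.17. There day 8 A (6.84) lay below growth C (6.88).

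Set against the day before, 3 of the 10 genes were called on day 6 (Klf6 higher, Klf9 and Klf15 lower; 6.13% of all genes). On day 8 limma called 0 of 10 (0.0185% of all genes); at an unadjusted p under 0.05 there were 2, Klf4 and Klf5, beside 1237 of all genes (11.5%). Without day 8 A those 2 were called higher, with 5.67% of all genes called. On day 10 Klf4, Klf6 and Klf15 were lower (3 of 10; 7.81% of genes), and Klf5 was also called without day 8 A. On day 12 Klf9 was called higher (1 of 10; 3.06%). Over longer steps, 4 of 10 were called for day 8 against day 4 (13.8% of all genes), 1 for day 10 against day 4 (26.5%), 2 for day 10 against day 6 (16.7%), 3 for day 12 against day 4 (32.2%), 4 for day 12 against day 6 (23.0%) and 4 for day 12 against day 8 (15.3%). Leaving out day 8 A, 6 were called for day 8 against day 4 (18% of all genes), with Klf4 (1.44) and Klf5 (1.76) added as higher. Day 12 against day 8 then also had 6 (12.5%), with Klf4 (-1.45) and Klf5 (-2.04) added as lower.

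In order of level, the group means of Klf3 ran day 8, day 12, day 10, day 6, day 4 and growth, and only the last step, day 4 above growth, was called. For Klf4 and Klf6 the top was day 8 and the bottom growth, again with only the lowest step called. Klf7 and Klf9 ran growth, day 12, day 4, day 10, day 8 and day 6, with no called step between neighbours. Klf15 ran day 4, day 6, day 8, growth, day 12 and day 10, with called steps between days 4 and 6 and between growth and day 12. No step between neighbours in order was called for Klf2, Klf5, Klf10 or Klf13.

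Over the 16 arrays, Klf3 correlated with Klf6 (r = 0.88) and Klf4 (r = 0.87), and Klf4 with Klf5 (r = 0.79). The lowest r was between Klf6 and Klf9 (-0.80). Outside the family, the genes whose values followed Klf4 most closely were Slit2 (r = 0.97), Slit3 (0.96) and Siah2 (0.96), the first 2 being secreted guidance ligands, and Gsta4 ran most against it (-0.97). Slit2 averaged 7.89 on day 4 and 8.93 on day 8, against 3.92 in growth. Those of Klf6 were Stox2, Tead1 and Cobll1 (0.95 each), with Ppt2 lowest (-0.95). Those of Klf2 were Gpr137 (0.95), Podxl2 (0.91) and Gm17396 (0.91), with Dcp2 lowest (-0.89), and those of Klf5 Bsdc1 (0.85), Slc22a23 (0.83) and Lrrc8a (0.82), with Rars2 lowest (-0.92). Podxl2 and Gm17396 averaged under log2 4 in all groups but day 12 (5.01 and 4.29), the day of the Klf2 call. Gpr137 did so in all but days 10 and 12 (4.22 and 5.6). Points share groups and arrays, and these are the extremes of 10802 genes.

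Among the other genes of the Klf and Sp families, Sp5 had the largest difference on day 4. Of 17 listed, single-gene probe sets named 13 and 8 were tested: Klf11, Klf12, Klf16, Sp1, Sp3, Sp4, Sp5 and Sp8. Called higher were 4, 1, 1, 0 and 1 of the 8 in day order, where 13.3%, 14.0%, 16%, 18.5% and 22.5% of all genes were. Sp5 is a target of Wnt signalling. Sp5 read 7.83, 9.39 and 9.89 on day 4, against 2.42, 2.41 and 2.42 in growth. The rise was at least 32.9-fold (adjusted p = 8.03e-09). It read 3.91 and 4.12 on day 6 and 2.38 to 2.60 on the later arrays. Sp5 thus passed the filter only through its day 4 arrays, the group where it was high. The day 4 count of calls includes both Sp5 and Sp8. Klf12 (1.06), Sp4 (1.61) and Sp8 were the others on day 4. Sp8 was dim in growth and on 1 of the 3 day 4 arrays (2.65, beside 4.35 and 5.20), passed the filter through day 4 alone, and was at least 1.05-fold higher. On day 8 the gene was Sp4, and without day 8 A it was Klf11 (1.04) in place of Sp4 (0.90). Sp1 was called lower on day 10 (-1.54, adjusted p = 0.0387), where it read 7.40 on replicate A and 10.51 and 10.18 on B and C. The erythroid factor Klf1, with Klf14, Klf17, Sp6 and Sp7, was not tested; Klf17 and Sp7 were dim on all 16 arrays and the other 3 passed log2 4 on 1 array each.

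Components of signalling inputs known for these genes were counted by list, with no test of a list. Among all genes, 13.3%, 14.0%, 16%, 18.5% and 22.5% were called higher in day order and 13.6%, 12.9%, 15.0%, 19.5% and 19.3% lower. Of 5 LIF pathway genes (Lifr, Il6st, Stat3, Socs3 and Jak1), 2, 4, 4, 4 and 5 were higher in day order and 0 were lower. On day 4, when Klf4 was first called, these were Stat3 (1.61) and Jak1 (1.20), while Socs3, a feedback target, was first called on day 6 (2.20). Of 6 ERK5 and MEF2 genes, 2, 2, 2, 3 and 3 were higher: Mef2a was called on all days, by 1.29 on day 4 and 3.57 on day 12. Mef2c was called from day 6 and was at least 54.9-fold higher on day 10. Mapk7, which encodes ERK5, was lower on day 12 (-1.04), the day of the Klf2 call.

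Of 5 TGF-beta genes 1, 3, 3, 2 and 4 were higher in day order, beside the same shares, with Tgfbr2 called on day 12 alone (2.48). Of 3 glucocorticoid genes, the receptor Nr3c1 was higher on all days (2.96 on day 12) and the target Fkbp5 lower on all days (-2.56 on day 8); Per1 was not called. Of 3 ubiquitin ligases of Klf proteins, Smurf1 alone was called, higher on day 10 (1.11). Of 10 cofactors 0 were higher on any day and 1, 1, 3, 3 and 3 were lower, beside 13.6%, 12.9%, 15.0%, 19.5% and 19.3% of all genes. Sin3a was -1.43 on day 10 and -1.83 on day 12, Hdac1 -1.05 and -1.37, and Ctbp2, the partner of Klf3, -1.32 and -1.17. The acetyltransferase Kat2b was lower on days 4, 6 and 8 (-1.72, -2.30 and -1.54).

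Known target genes gave mixed readings. Of 4 endothelial Klf2 targets Vcam1 alone was tested, and was at least 7.96-fold higher on day 12 (adjusted p = 4.39e-08). Nos3 and S1pr1 were dim on all 16 arrays and Thbd passed log2 4 on 1. Of 5 tested genes listed for Klf4 and Klf5, Pdgfa was higher on all 5 days (1.52 on day 4, 2.25 on day 8), Acta2 from day 6 and Tagln from day 8, and Ccnd1 was lower on days 10 and 12 (-1.58 and -1.86). Acta2 and Tagln are also smooth muscle markers: that list summed to 135 to 211 on day 4 and 276 to 6150 on day 8, against 101 to 126 in growth, with Myh11 dim throughout. Of 3 Klf6 targets, Tgfb1 was higher on day 4 (1.34) and lower on day 8 (-1.51), Col1a1 higher on days 6 and 12, and Eng not called.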

How the data were processed

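The 16 arrays were grouped by the labels. The values were deposited by the authors as GCRMA signals, per the submitters' processing notes; scale and version are not given in the sources used here. From the range, 0.863 to 15.9, the deposited values were read as log2 signals that the authors had made with GCRMA. Of 45101 probe sets, 34945 named 1 gene. Probe sets above log2 4 on fewer than 2 arrays were left out, and the brightest probe set per gene was kept, leaving 10802 genes. Group means were estimated in 1 limma 3.58.1 fit (R 4.3.3) of the 16 arrays, with 10 residual and 3.53 prior degrees of freedom, and p-values were adjusted by Benjamini-Hochberg over all genes of a contrast. Precision is limited by the 2 or 3 arrays in a group. Sequences came from RefSeq (GRCm38.p6).

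The 10 genes and the gene lists were chosen with earlier results of these data known. Beyond the 10 genes and their family, named genes were at most 4 called per list and day, and for Klf2, Klf4, Klf5 and Klf6 the 3 highest and 1 lowest correlations. Replicate letters were not used as pairs, since labels do not tie a letter to a culture or day: same-letter residuals correlated at -0.21 to 0.32, with 13 of 35 pairs over 0.1 (median 0.06), beside 7 of 71 different-letter pairs (median -0.03). The alternatives changed the filter, normalization, probe set rule, variance model, block and arrays left out. The fit was tested on simulated data.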

Additional observations from a re-analysis of the deposited data

Results flagged for a closer look

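Klf15 differed in opposite directions from growth early and late: every day 4 array lay above all growth arrays, and every day 10 and day 12 array below them. The log2 difference was -3.83 ± 0.29 (SE) for day 10 against day 4 (limma adjusted p = 5.16e-07) and -3.82 ± 0.33 for day 12 against day 4 (adjusted p = 1.12e-06). Against growth the differences were 2.33 on day 4 and -1.49 on both days 10 and 12. Klf15 is measured by a single probe set here.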

How the results depend on the processing

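Of 90 differences of the 10 genes (each day against growth and against the day before), 34 were called, and 23 of these kept their call in all 27 alternatives; 11 lost it in some. Of the 56 not called, 12 were called in some. A sign change occurred 23 times over 12 differences, all of them uncalled. With probe sets averaged per gene, the day 10 against day 8 count was 1, the day 12 against day 10 count 0, Klf3 day 12 against day 10 -0.17, Klf6 day 8 against day 6 -0.14 and Klf13 day 12 against day 10 -0.06. With only the compared groups fitted the day 12 against day 10 count was 0. With array weights the day 8 against day 6 count was 2, Klf7 day 10 against day 8 -0.06, Klf15 day 8 against growth -0.23 and Klf15 day 12 against day 10 -0.01; the last was -0.26 after quantile normalization and -0.08 after scaling to a common median. Without _x_at and _s_at probe sets Klf6 day 12 against day 10 was 0.01.

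Leaving out 1 array gave counts of 1 to 3 for day 6 against day 4, 0 to 2 for day 8 against day 6, 1 to 4 for day 10 against day 8 and 0 to 2 for day 12 against day 10. For differences whose sign it turned, the range was -0.04 to 0.38 for Klf2 on day 4 against growth, -0.28 to 0.01 for Klf2 on day 6 against growth, -0.08 to 0.34 for Klf2 on day 8 against growth, -0.32 to 0.77 for Klf3 on day 12 against day 10, -1.14 to 0.26 for Klf5 on day 6 against day 4, -0.47 to 0.03 for Klf6 on day 12 against day 10, -0.07 to 0.2 for Klf7 on day 10 against day 8, -0.35 to 0.13 for Klf13 on day 4 against growth, -0.17 to 0.3 for Klf15 on day 8 against growth and -0.22 to 0.26 for Klf15 on day 12 against day 10.

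The replicate block, with the letter as a term, moved no count by over 1.5 times: 5, 6, 6, 6 and 5 genes on days 4, 6, 8, 10 and 12 against growth, and 10 by the F test. It gave -0.03 for Klf15 on day 12 against day 10. With the block Klf5 was called on day 4 (adjusted p = 0.017), Klf10 on day 6 but not on day 12, and Klf5 on day 10 against day 8. The labels tie no letter to a culture, so the block was not read as pairing. Why results moved under these settings was not tested.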
